A study of Mus musculus with 6 samples.

Results

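The GABAergic interneuron markers described here are 9 genes, Gad1, Gad2, Sst, Npy, Vip, Cck, Pvalb, Calb1 and Calb2, chosen by name. Each symbol had 1 entry among the 23282 entries of the count tables, and all 9 were among the 15239 genes that passed the filter on low counts. The libraries were made from forebrain RNA of adult male C57BL/6J mice, with the olfactory bulbs and cerebellum removed, 1 hemisphere per mouse and 1 library per mouse. In the group labelled WAS (n = 3), mice stood for 1 h on a small platform surrounded by water (water avoidance stress), and in the group labelled control (n = 3) mice stood for 1 h on the same platform in a dry container. All were killed directly afterwards, no genotype or drug differed between the groups, and both groups share strain, sex and handling on the platform. The tissue was a whole hemisphere, so a transcript made by fewer cells and a transcript made at a lower level per cell cannot be told apart. The count column is headed by a name beginning WC in each file of the WAS group, and by one beginning WS in each file of the control group. No source used here defines these headings. Whether the labels or the headings name the groups rightly was not settled. The groups follow the labels, and were the labels exchanged every direction given here would turn around.

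GABA is the main inhibitory transmitter of the forebrain. It is made from glutamate by glutamic acid decarboxylase, which exists as GAD67, encoded by Gad1 and spread through the cell, and GAD65, encoded by Gad2 and concentrated at nerve endings. Cortical and hippocampal interneurons are sorted into classes by the peptide precursors and calcium-binding proteins they express: Sst (somatostatin), Npy (neuropeptide Y), Vip (vasoactive intestinal peptide), Cck (cholecystokinin), Pvalb (parvalbumin), Calb1 (calbindin) and Calb2 (calretinin). Outside these classes, the GAD genes are also active in striatal projection neurons, Cck in many pyramidal cells, Calb1 in striatal projection neurons and Calb2 in cells of the thalamus and midbrain. In hemisphere RNA the markers therefore do not report interneurons alone.

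Among the 9 genes, the 3 peptide precursor promoters shown here belong to the most even marker in these libraries (Sst) and to a pair of markers with their lowest values in the same 2 libraries (Npy and Cck). Sequences are from RefSeq on GRCm38.p6, cover 250 bases before to 50 after the start site and are written 5′ to 3′ on the strand of the gene. The Sst window is chr16:23890795-23891094 on the minus strand, the Npy window chr6:49822460-49822759 on the plus strand and the Cck window chr9:121495645-121495944 on the minus strand. Capitals mark the cAMP response element (CRE) with the letters TGACGTCA, which reads the same on both strands and is the element that CREB is known to bind. The search, on both strands, also took the AP-1 letters TGANTCA and the TATA letters TATAAA.
Sst: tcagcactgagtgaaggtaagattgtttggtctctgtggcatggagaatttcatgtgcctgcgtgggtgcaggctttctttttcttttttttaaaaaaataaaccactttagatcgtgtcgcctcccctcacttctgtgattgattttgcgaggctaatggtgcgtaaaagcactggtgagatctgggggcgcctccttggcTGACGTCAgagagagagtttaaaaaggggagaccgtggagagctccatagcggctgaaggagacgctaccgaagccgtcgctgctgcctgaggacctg
Npy: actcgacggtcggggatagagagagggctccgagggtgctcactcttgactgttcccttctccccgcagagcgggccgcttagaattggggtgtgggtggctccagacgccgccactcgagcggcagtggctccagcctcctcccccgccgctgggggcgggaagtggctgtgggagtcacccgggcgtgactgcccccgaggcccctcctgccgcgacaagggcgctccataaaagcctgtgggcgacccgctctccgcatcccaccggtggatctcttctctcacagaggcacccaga
Cck: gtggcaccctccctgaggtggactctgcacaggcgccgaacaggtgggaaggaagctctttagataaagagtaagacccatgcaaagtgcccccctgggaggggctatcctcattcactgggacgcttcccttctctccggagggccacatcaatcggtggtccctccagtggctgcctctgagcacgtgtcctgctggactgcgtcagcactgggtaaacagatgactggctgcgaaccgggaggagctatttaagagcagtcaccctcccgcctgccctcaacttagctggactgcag
The Sst promoter held 1 CRE, with its first base 48 bases upstream of the start site (-48). Of 32851 promoters of this length, 1.79% held the CRE letters, 7.81% the AP-1 letters and 13.6% the TATA letters. The Npy and Cck windows held none of the 3 motifs, the Vip window held 3 TATA matches and the Gad1 window 1, and the windows of Gad2 and Pvalb held none. Promoters were found for 7 of the 9 genes, and those of Calb1 and Calb2 were not analysed here. These letters are a description of the windows only.

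In the GRCm38 annotation (GENCODE M21), the build that the submitters' processing notes call mm10, Gad1 lies on chromosome 2 from 70553072 to 70602014 and Gad2 on chromosome 2 from 22622205 to 22693874. Calb1 lies on chromosome 4 from 15881264 to 15908064, and Calb2 on chromosome 8 from 110137502 to 110168210, on the minus strand. The library method, QuantSeq, reads the end of a transcript beside its poly(A) tail. Over which bases the reads of a gene were counted is not given in the sources used here. In the longest coding transcript of Calb2 the last exon runs from 110142538 to 110143200. The annotated gene extends beyond it, to 110137502, so this exon need not hold the end that was read. Gad1 overlaps an antisense gene, Gad1os, which reaches no base of the last Gad1 exon and held 1 count in all 6 libraries together. The last 500 bases of the coding transcripts shared no stretch of 50 bases with another gene for 8 of the 9 markers. The Gad1 end shared such a stretch with a pseudogene, Gad1-ps, and because the authors counted multiple alignments, the Gad1 counts are uncertain to that extent. The end of Calb1 and the end of Calb2, which are paralogs, shared none.

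Total counts per library ranged from 9248520 to 10502029. Values are CPM (counts scaled to the library total), and fold changes compare the libraries labelled WAS with those labelled control. Of the markers of the removed cerebellum, Gabra6 had 1 count in all 6 libraries together, while Grm4 had 395 to 466 counts per library. WAS replicates 1 and 3 stood apart from the other 4 libraries in markers of the thalamus, midbrain and striatum. Those values stand beside the results that they accompany.

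Calb2 was the single marker called different. A call took a change of 1.5-fold or more together with an unadjusted p below 0.05 in edgeR's quasi-likelihood test. It was called higher in the libraries labelled WAS, at 2.72-fold (95% interval 1.44 to 5.15). The call held for 1 of the 9 markers, beside 2.49% of all genes tested. By direction, 1 of 9 was called higher beside 1.82% of all genes, and 0 of 9 were called lower beside 0.676%. At an unadjusted p under 0.05 alone there were 2 of 9, Calb2 and Cck, beside 7.24% of all genes. At an adjusted p under 0.05 there were 0 of 9 beside 0% of all genes by edgeR's quasi-likelihood test. DESeq2 gave 0 of 9 beside 22 of the 15239 genes tested, and limma 0 of 9 beside 0 of 15239. The libraries of the groups overlapped in every one of the 9 markers, whereas 12.2% of all genes tested did not overlap. The median log2 fold change of the 9 markers was -0.047, and that of all genes tested was 0.00088.

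**Figure D1:**
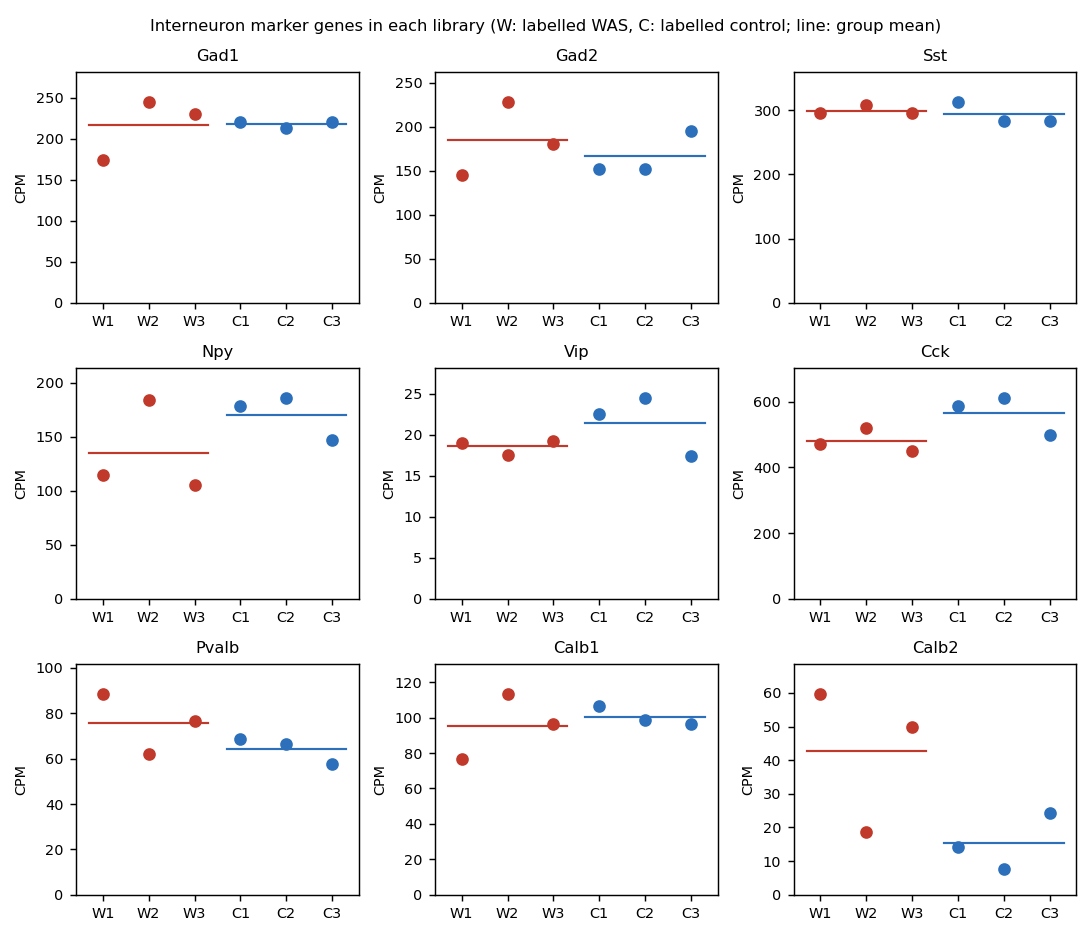
CPM of each marker in each library, with W for the libraries labelled WAS, C for those labelled control, lines for group means and every axis starting at 0. Sst lies between 284 and 313 CPM in all 6 libraries, while Calb2 spreads from 7.61 to 59.7 CPM with its highest values in WAS replicates 1 and 3.

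The markers differed in abundance over a wide range. Because QuantSeq gives about a read per transcript end whatever the transcript's length, CPM was compared between genes without dividing by length. Mean CPM over the 6 libraries was 522 for Cck, 297 for Sst, 217 for Gad1, 175 for Gad2, 153 for Npy, 97.9 for Calb1, 70.0 for Pvalb and 29.1 for Calb2. Vip was last, between 17.4 and 24.5 CPM in the 6 libraries. Cck and Sst each stood clear of their neighbours in this order, without overlap of the library values. The library ranges of each other pair of neighbours overlapped: Gad1 and Gad2, Gad2 and Npy, Npy and Calb1, Calb1 and Pvalb, Pvalb and Calb2, and Calb2 and Vip. How evenly a marker was measured also differed. The coefficient of variation over the 6 libraries was 4.05% for Sst, where 2.33% of the genes tested had a smaller one, and 71.9% for Calb2, where 97.5% had a smaller one. The other 7 lay between 11.0% (Gad1) and 23.6% (Npy).

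The GAD genes did not separate the groups. Gad1 was measured at 174, 245 and 231 CPM in WAS replicates 1, 2 and 3 and at 221, 213 and 219.9 CPM in the control replicates. The control libraries lay close together, and the WAS libraries held both the lowest and the highest value. The log2 fold change of Gad1 was -0.047 (standard error 0.12, 95% interval -0.30 to 0.21, adjusted p = 0.968 by edgeR). Gad2 was at 145, 228 and 180 CPM in the WAS libraries and at 152, 152 and 195 CPM in the control libraries. Again WAS replicate 1 was lowest and WAS replicate 2 highest. For Gad2 the log2 fold change was 0.11 (standard error 0.16, 95% interval -0.23 to 0.45, adjusted p = 0.941 by edgeR). Gad1 exceeded Gad2 in every library, by 1.07 to 1.28 times in the WAS libraries and 1.13 to 1.45 times in the control libraries. Both genes were lowest in WAS replicate 1 and highest in WAS replicate 2. These are also the libraries with the lowest and the highest sum of 9 striatal projection neuron markers, at 183 and 2130 CPM. The part of the striatal share in the GAD values was not tested.

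Of the 4 peptide precursors, Sst was the steadiest. Sst, whose peptide is released by dendrite-targeting interneurons, was at 296, 308 and 295 CPM in the WAS libraries and at 313, 284 and 284 CPM in the control libraries. The values of the groups interleaved. The log2 fold change was -0.0064 (standard error 0.078, 95% interval -0.18 to 0.16, adjusted p = 0.994 by edgeR), so that the interval spans fold changes from 0.885 to 1.12. Its sign turned around with the scaling, to 0.030 with library totals alone.

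Cck, shared between a class of basket cells and many pyramidal cells, was the most abundant marker. It was at 470, 519 and 450 CPM in the WAS libraries and at 586, 611 and 498 CPM in the control libraries. Control replicates 1 and 2 lay above every WAS library, and control replicate 3 lay below WAS replicate 2. For Cck the log2 fold change was -0.27 (standard error 0.095, 95% interval -0.48 to -0.064, unadjusted p = 0.0149 and adjusted p = 0.585 by edgeR). At 0.828-fold the difference is smaller than the fold change of 1.5 used for a call. In each pair of libraries with the same replicate number the library labelled WAS was lower, at 0.802, 0.850 and 0.903 of the control.

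Npy, the peptide of many Sst-positive and neurogliaform interneurons, was at 115, 184 and 105 CPM in the WAS libraries and at 179, 186 and 147 CPM in the control libraries. WAS replicates 1 and 3 were below every control library, and WAS replicate 2 was level with control replicates 1 and 2. For Npy the log2 fold change was -0.38 (standard error 0.18, 95% interval -0.77 to 0.021, adjusted p = 0.702 by edgeR). Without WAS replicate 2 it was -0.67 with an adjusted p = 0.00238 by edgeR, which is a call, in a fit where 5.41% of all genes were called and 3.22% passed an adjusted p of 0.05. With WAS replicate 2 as the only library of its group it was 0.073. Vip, the peptide of interneurons that mainly contact other interneurons, was the least abundant marker. Vip counts were 191, 162 and 192 in the WAS libraries and 236, 254 and 174 in the control libraries. The lowest CPM, in control replicate 3, was below all 3 WAS libraries. For Vip the log2 fold change was -0.24 (standard error 0.15, 95% interval -0.57 to 0.082, adjusted p = 0.785 by edgeR).

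**Figure D2:**
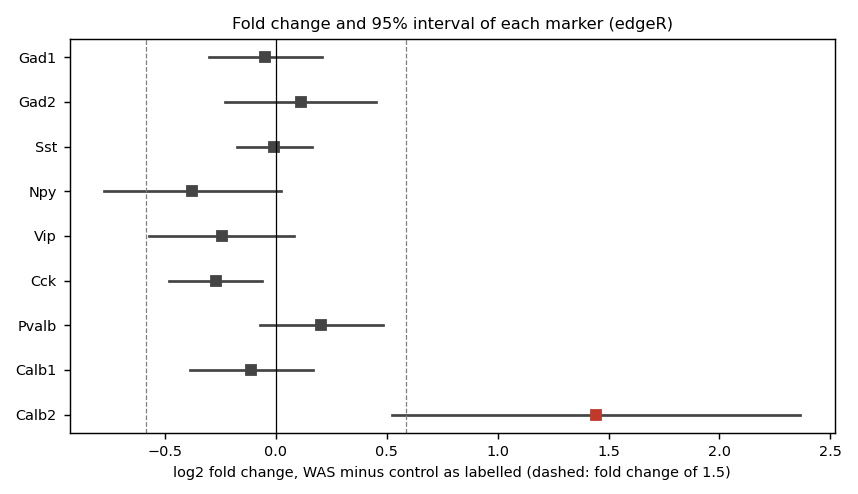
Log2 fold change of each marker, WAS minus control as labelled, with the 95% interval from edgeR as a bar and dashed lines at a fold change of 1.5. Calb2, the marker drawn in red, lies at 1.44, and the intervals of the GAD genes, Sst, Vip, Npy, Pvalb and Calb1 cross 0 while that of Cck ends at -0.064.

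Of the 3 genes for calcium-binding proteins, Pvalb and Calb1 were not called. Parvalbumin, a slow calcium buffer of fast-spiking basket and chandelier cells, is encoded by Pvalb, which was at 88.5, 62.2 and 76.6 CPM in the WAS libraries and at 68.5, 66.5 and 57.5 CPM in the control libraries. WAS replicates 1 and 3 were the highest libraries and WAS replicate 2 lay among the controls. For Pvalb the log2 fold change was 0.20 (standard error 0.13, 95% interval -0.074 to 0.48, adjusted p = 0.797 by edgeR). Calb1, which encodes calbindin, a fast calcium buffer, was at 76.7, 113 and 96.3 CPM in the WAS libraries and at 106, 98.7 and 96.4 CPM in the control libraries. As for the GAD genes, WAS replicates 1 and 2 were the lowest and the highest library. For Calb1 the log2 fold change was -0.11 (standard error 0.13, 95% interval -0.39 to 0.17, adjusted p = 0.919 by edgeR).

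Calb2, which encodes calretinin and marks bipolar interneurons of the cortex as well as cells of the thalamus and midbrain, had 601, 173 and 498 counts in WAS replicates 1, 2 and 3. The control replicates had 149, 79 and 242 counts. WAS replicates 1 and 3 stood far above the rest, and WAS replicate 2 lay between control replicates 1 and 3, so the groups overlapped. Mean levels were 42.8 ± 21.4 CPM (SD, n = 3) for WAS and 15.4 ± 8.38 CPM (SD, n = 3) for control. Counting alone gives a coefficient of variation of 4.86% and 7.99% at these depths, against measured values of 50.1% and 54.6%. The log2 fold change was 1.44 (standard error 0.42, 95% interval 0.52 to 2.36, unadjusted p = 0.00531 and adjusted p = 0.539 by edgeR).
Leaving out single libraries kept the call of Calb2 in 6 of 6 fits, with log2 fold changes from 1.12 to 1.95. It was 1.95 without control replicate 3 and 1.80 without WAS replicate 2. On quantile-normalized log2 counts with limma it was 1.41 with an unadjusted p of 0.0560, which ends the call. With WAS replicate 2 as the only library labelled WAS it was 0.24, a value given with no test because the spread would come from the control libraries alone. In each pair of libraries with the same number Calb2 was higher in the one labelled WAS, by 4.21, 2.46 and 2.06 times for the numbers 1, 2 and 3. With the replicate number as a block, the log2 fold change was 1.44 (standard error 0.19) and the adjusted p = 0.0156 by edgeR, where 0.322% of all genes passed an adjusted p of 0.05. That block rests on a pairing read from these same data, which the labels do not state.

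The summed thalamus and midbrain markers, like Calb2, were highest in WAS replicates 1 and 3. Of 10 thalamus and midbrain genes, 7 were called higher in the libraries labelled WAS and 0 lower, beside 1.82% and 0.676% of all genes tested, with a median log2 fold change of 1.76. The summed level of the list was 730, 295 and 633 CPM in WAS replicates 1, 2 and 3, and 302, 282 and 287 CPM in the control replicates. Among the control replicates this sum was nearly level, while Calb2 was at 14.2, 7.61 and 24.3 CPM. Tcf7l2, a transcription factor of thalamic neurons, had 2357, 388 and 1729 counts in the WAS libraries and 384, 214 and 383 in the control libraries. Its highest libraries, WAS replicates 1 and 3, were those of Calb2, and control replicate 2 was the lowest for both. In CPM, control replicate 3 was above WAS replicate 2 for Calb2 but below it for Tcf7l2. Slc17a6, the vesicular glutamate transporter of thalamic neurons, had 1710, 284 and 1339 counts in the WAS libraries and 402, 304 and 273 in the control libraries. Slc6a3, the dopamine transporter, had 107, 0 and 100 counts against 0, 3 and 3, and Gata3, of midbrain GABAergic neurons, 160, 0 and 143 against 26, 9 and 1. The other genes called in the list were Th, Tal1 and Prkcd, and Rora, the most abundant, was not called.
Set against Tcf7l2 within each library, Calb2 was at 0.255, 0.446 and 0.288 counts per Tcf7l2 count in the WAS libraries and at 0.388, 0.369 and 0.632 in the control libraries. On this scale the mean log2 difference was -0.49, with SDs of 0.42 and 0.43 over 3 libraries each. The groups overlapped, and the mean was lower for WAS. Per Slc17a6 count the mean log2 difference of Calb2 was -0.034, again with overlap and with SDs of 0.44 (WAS) and 0.91 (control). The control ratios there were 0.371, 0.260 and 0.886, so the small mean difference hides a wide spread. The part of the thalamus and midbrain share in the Calb2 call was not tested.

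The striatal list went the other way in the same libraries. Its summed level was 183, 2130 and 414 CPM in WAS replicates 1, 2 and 3, and 1064, 1346 and 1457 CPM in the control replicates. None of the 8 genes tested of 9 was called, beside 2.49% of all genes tested. All 8 had a log2 fold change below 0, and the median was -0.53. Drd2 had 1 count in all 6 libraries together, so this receptor gene of striatal neurons did not report the striatum in these tables. Npy, like the striatal list, was low in WAS replicates 1 and 3 and high in WAS replicate 2, but its range was 1.77-fold.

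**Figure D3:**
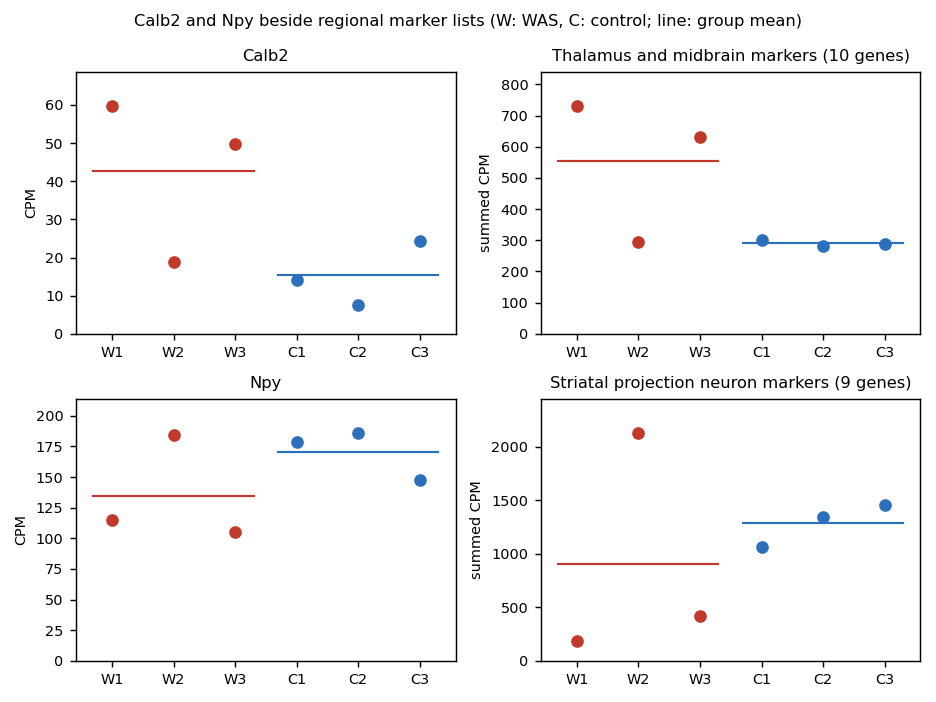
Calb2 and Npy in CPM beside the summed CPM of the thalamus and midbrain list and of the striatal list, per library, with lines for group means and axes from 0. Calb2 and the thalamus and midbrain sum (295 to 730 CPM in the WAS libraries) are both high in WAS replicates 1 and 3, where the striatal sum is 183 and 414 CPM.

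Other tissue lists were read for the same purpose. Cerebellar markers summed to between 77.3 and 87.0 CPM in every library, although Barhl1 and En2, a homeobox gene also used in the midbrain, were called higher (2 of 7 tested, beside 1.82% of all genes). Barhl1 had 39, 2 and 45 counts in the WAS libraries against 10, 1 and 4, high in WAS replicates 1 and 3. Olfactory bulb markers summed to between 11.1 and 25.9 CPM, and the 1 gene called of 5 tested, beside 2.49% of all genes, was Th, which the thalamus and midbrain list also holds. Of 6 hypothalamic genes tested none was called, and the list summed to 10.6 to 25.2 CPM in the WAS libraries and 3.18 to 53.5 CPM in the control libraries. Of the 5 astrocyte, 5 oligodendrocyte, 5 microglia and 5 choroid plexus genes, none was called. At an unadjusted p under 0.05 by edgeR, which 7.24% of all genes passed, these lists held 2 (Aqp4 and S100b), 0, 0 and 0 genes and the hypothalamic list 0. The choroid plexus sum was 40.6 CPM in WAS replicate 1 and 15.6 CPM in control replicate 2, and between 911 and 1230 CPM in the other 4 libraries. These low libraries were the highest and the lowest library for Calb2, in that order.

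Because a ratio of 2 genes inside a library does not depend on the scaling of that library, each of the other 7 markers was set against the summed counts of Gad1 and Gad2. The groups overlapped for all 7. Sst stood at 0.926, 0.651 and 0.719 counts per GAD count in the WAS libraries and at 0.840, 0.775 and 0.685 in the control libraries. The mean difference for Sst was -0.014 on the log2 scale. Npy stood at 0.360, 0.390 and 0.255 per GAD count against 0.480, 0.508 and 0.355, a mean log2 difference of -0.42 with SDs of 0.32 and 0.28. Only WAS replicates 1 and 2, of the 3, exceeded the lowest control library. For Cck and Vip the mean log2 differences were -0.28 and -0.24, and for Calb1 and Pvalb -0.14 and 0.18. Calb2 stood at 0.187, 0.0396 and 0.121 per GAD count against 0.0381, 0.0208 and 0.0585, a mean log2 difference of 1.43 with SDs of 1.16 and 0.75. The order seen in CPM was thus found again for Calb2, with WAS replicates 1 and 3 on top.

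**Figure D4:**
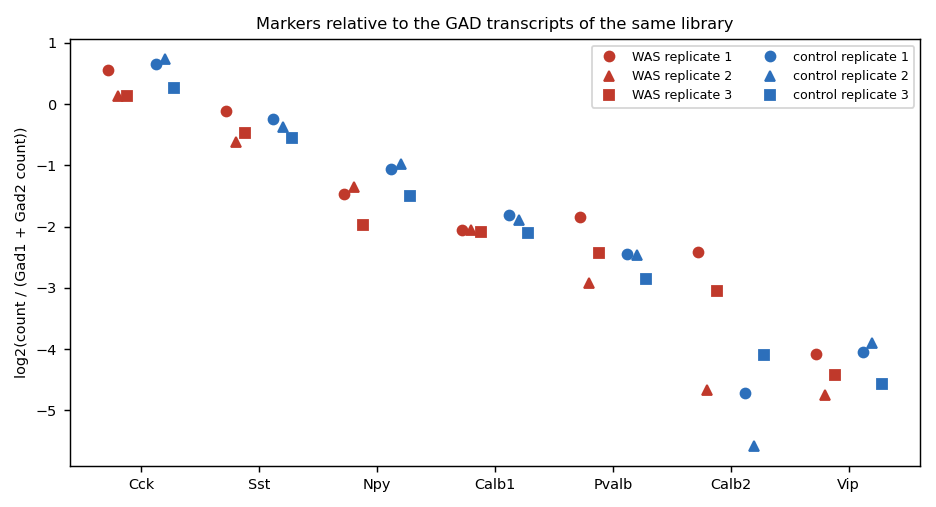
Log2 of each marker's count divided by the summed Gad1 and Gad2 count of the same library, with red symbols for WAS, blue for control and a shape for each replicate number. All 7 markers overlap between groups, and Calb2 has the widest spread, from 0.0208 (control replicate 2) to 0.187 (WAS replicate 1) counts per GAD count before the log.

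Other genes of GABA handling and of interneurons were read from lists. Of 5 genes of GABA transport and breakdown, 1 was called higher and 0 lower, beside 1.82% and 0.676% of all genes tested, with a median log2 fold change of 0.099. The gene called was Slc6a11, the GABA transporter GAT-3 of astrocytes, with 2563, 1040 and 2205 counts in the WAS libraries and 1048, 869 and 1099 in the control libraries. In CPM its groups did not overlap (log2 fold change 0.96, standard error 0.23, adjusted p = 0.477 by edgeR), and WAS replicates 1 and 3 were again far above the others. Slc32a1, which loads GABA into vesicles and was among the 2 most abundant genes of this list, was at 148 ± 46.1 CPM (SD, n = 3) against 147 ± 17.4 CPM (SD, n = 3).
Of 20 interneuron transcription factors, 2 were called higher (Nr2f2 and Npas1) and 1 lower (Sp8), beside 1.82% and 0.676% of all genes tested, and the median was -0.17. Here too the directions are those of the labels. Nr2f2, of interneurons from the caudal ganglionic eminence and also of the thalamus, had 1368, 591 and 1842 counts in the WAS libraries against 577, 468 and 717. Sp8, which had 1, 8 and 4 counts against 19, 13 and 11, rests on few reads. Npas1 had 58, 39 and 34 counts against 26, 23 and 11. The most abundant genes of the list, Nfix and Nr2f1, gave log2 differences of -0.17 and 0.077 (standard errors 0.16 and 0.089).

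Of 28 other interneuron subclass genes, 5 were called higher (Htr3a, Kit, Nos1, Sncg and Syt2) and 1 lower (Lamp5), beside 1.82% and 0.676% of all genes tested, with a median log2 fold change of 0.098. Lamp5, of neurogliaform cells and also of cortical pyramidal cells, was at 85.7, 131 and 78.7 CPM in the WAS libraries and at 162, 155 and 124 CPM in the control libraries. As for Npy, WAS replicates 1 and 3 were lowest and WAS replicate 2 exceeded control replicate 3. The log2 fold change of Lamp5 was -0.62 (standard error 0.17, adjusted p = 0.514 by edgeR). Htr3a, the serotonin-gated channel of Vip and neurogliaform cells, had 17, 19 and 27 counts against 6, 2 and 8, and all 3 WAS libraries were above all controls. Syt2, a synaptotagmin of Pvalb cell terminals that brainstem neurons also use, had 479, 195 and 348 counts against 213, 207 and 206. The remaining genes called higher, in the direction that the labels give, were Nos1, a nitric oxide synthase (516, 363 and 540 counts against 312, 327 and 299), Kit, a receptor tyrosine kinase (282, 181 and 280 against 158, 179 and 143) and Sncg, a synuclein of Cck basket cells (52, 13 and 61 against 16, 9 and 27). Among the most abundant genes of the list, Id2 was at 440 ± 48.0 CPM (SD, n = 3) against 489 ± 61.5 CPM (SD, n = 3). Penk, which the striatal list also holds, was at 178 ± 215 CPM (SD, n = 3) against 232 ± 23.5 CPM (SD, n = 3).

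On the receiving side, 9 of 13 receptor genes for the 4 peptides were tested. Of these 1 was called higher and 0 lower, beside 1.82% and 0.676% of all genes, with a median of -0.026 on the log2 scale. Npy2r, a presynaptic neuropeptide Y receptor, had 151, 56 and 186 counts in the WAS libraries and 67, 51 and 77 in the control libraries (log2 fold change 1.03, standard error 0.35, adjusted p = 0.585 by edgeR). Its high libraries, WAS replicates 1 and 3, were the low libraries of the Npy transcript itself. Cckbr, the main cholecystokinin receptor of the forebrain, had 386, 363 and 337 counts against 504, 511 and 418. In CPM the groups did not overlap for 3 of the 9 receptors tested, Cckbr, Vipr1 (162, 148 and 177 counts against 248, 222 and 193) and Sstr2, beside 12.2% of all genes tested. WAS was below control for all 3, and none was called. For Sstr1, the other abundant receptor gene, the log2 difference was 0.12 (standard error 0.18), and Sstr4 and Npy4r were at or under 3 counts in every library. The enzymes and granins that process neuropeptides gave 0 calls among 10 genes, beside 2.49% of all genes. There was 1 gene, Pcsk2, at an unadjusted p under 0.05, beside 7.24% of all genes, and a median log2 fold change of -0.00065. Cpe, a carboxypeptidase of peptide granules, was at 1881 ± 184 CPM (SD, n = 3) against 1656 ± 84.8 CPM (SD, n = 3), and Chgb at 438 ± 40.0 CPM (SD, n = 3) against 477 ± 27.2 CPM (SD, n = 3).
Cck shared its direction with 3 genes of cortical glutamatergic neurons, Slc17a7, Nrgn and Camk2a. Of the 8 genes of the glutamatergic list, 7 had a log2 fold change below 0 and 1, Slc17a6, above it (1.78). Neurod6 and Neurod2 of that list gave -0.12 and -0.16 (standard errors 0.16 and 0.13). Slc17a7, the vesicular glutamate transporter of cortical pyramidal cells, had 2323, 2403 and 2283 counts in the WAS libraries against 2845, 3090 and 3045. Nrgn and Camk2a, the most abundant genes of the glutamatergic list, gave log2 differences of -0.42 and -0.33 (standard errors 0.13 and 0.083). The part of the cortical share in the Cck value was not tested.

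**Figure D5:**
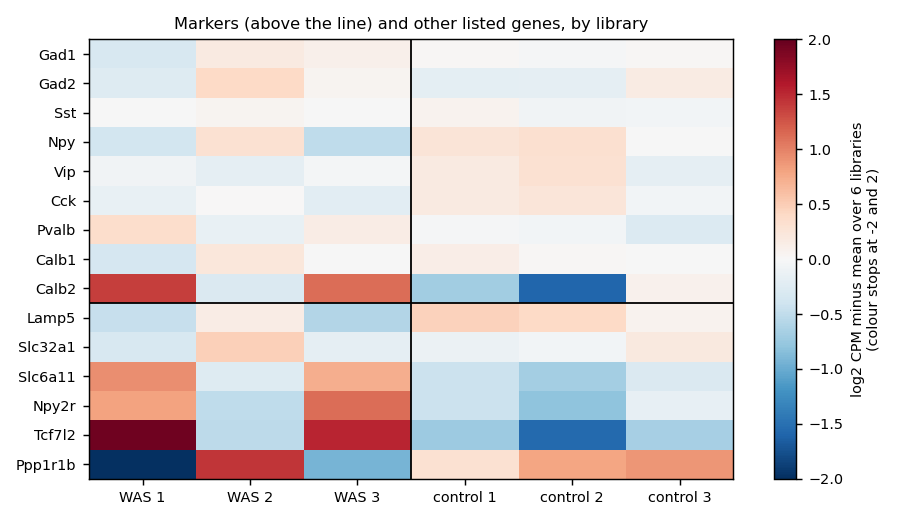
Log2 CPM minus the mean over the 6 libraries, in colour, for the 9 markers above the line and 6 other listed genes below it, with libraries in columns and colours ending at -2 and 2. Calb2, Slc6a11, Npy2r and Tcf7l2 are high in WAS replicates 1 and 3 (1.38 and 1.12 for Calb2), where Npy, Lamp5 and Ppp1r1b are low.

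The 3 markers with the widest range of log2 values were Calb2, Npy and Gad2. For each, genes with a mean of at least 10 CPM were ranked by the root mean square difference between the library deviations of log2(CPM + 1), over 6 libraries and 9400 genes. Calb2 was followed most closely by Nnat (0.22), Sparc (0.24) and Dcn (0.31), where the median over the genes compared was 0.97. Nnat counts were 3233, 1326 and 3531 in the WAS libraries and 1066, 787 and 1704 in the control libraries, which is the order of Calb2 except that WAS replicate 3 exceeded WAS replicate 1. Npy was followed most closely by Fat3 (0.057), Atp2b2 (0.071) and Camkk2 (0.077), where the median was 0.36. Fat3 was at 85.5, 137 and 84.5 CPM in the WAS libraries and at 129.9, 135 and 105 CPM in the control libraries, low in WAS replicates 1 and 3 as Npy was. Gad2 was followed most closely by Ikbkg (0.049), Bcl10 (0.064) and Ydjc (0.076), all at under 25 CPM, where the median was 0.27. The ranking is a description over 6 libraries, with no test.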

How the data were processed

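RNA of 3 hemispheres labelled WAS and 3 labelled control was analysed, 1 library per mouse, so the spread is that between mice. The authors deposited whole-number read counts per gene symbol, made from single-end QuantSeq 3′ reads of 75 bases by Bowtie2 alignment and Bedtools counting of unique and multiple alignments. The genome is mm10 per the labels, and the annotation is not given in the sources used here. The authors' quantile normalization is not in these counts.

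The main test was edgeR's quasi-likelihood test (edgeR 4.0.16, R 4.3.3), with TMM factors (0.976 to 1.01), on the 15239 genes with a mean log2(quantile-normalized count + 1) of at least 2, the study's filter as read from its methods. The Benjamini-Hochberg adjustment ran over all genes tested. A call needed a 1.5-fold change or more and an unadjusted p below 0.05. Standard errors are the log2 fold change over the square root of F. CPM was taken on library totals without TMM. Counting errors cover counting alone, since no molecular identifiers are named in the sources.

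The members, lists and named genes were chosen with earlier results of these data known. All 9 members, and of each list the 2 most abundant tested genes and those called, were to be named. Likewise to be named were, for the 3 members of widest range, the 3 genes most like them. Vipr1, Sstr2, Pcsk2, Aqp4, Slc17a7, Neurod6, Neurod2, Drd2 and Gabra6 were picked with their values seen. For lists of other tissues and cell types, only counts and sums are given for most genes. The counts of calls in the glutamatergic list are not reported here. Drd1 and Npy4r were matched through older symbols. Alternatives were DESeq2 1.42.0, limma 3.58.1, other scalings and filters, the replicate number as a block, and libraries left out. Libraries with the same number deviated together from their group means (r = 0.13, 0.21 and 0.15 over genes with a mean of at least 10 CPM). Libraries with different numbers gave r from -0.13 to 0.0096. Deviations within a group sum to 0, so these values are tied to one another and cannot establish pairs. The numbers were used as pairs in the block fit and the ratios of same-numbered libraries. The main test had no block. The labels do not say what a number shares.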

Additional observations from a re-analysis of the deposited data

How the results depend on the processing

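Calb2 kept its direction in all 14 alternatives. Its call was lost on quantile-normalized log2 counts with limma (1.41, 0 markers called), and the cause was not tested. With WAS replicate 2 as the only library of its group, a setting chosen after seeing the data, it was 0.24 with 0 markers called. That fit takes its spread from the control libraries and is no test of the group. With single libraries left out, the number of markers called was 1 to 2, the number past an adjusted p of 0.05 was 0 to 2 and the number of all genes called was 264 to 825, each highest without WAS replicate 2. In these fits the log2 fold change of Npy ran from -0.67 to -0.23, of Gad1 from -0.15 to 0.085, of Gad2 from -0.069 to 0.25, of Sst from -0.029 to 0.032, of Calb1 from -0.25 to 0.021, of Pvalb from 0.076 (without WAS replicate 1) to 0.33 (without WAS replicate 2) and of Vip from -0.37 to -0.14. All genes split into 277 higher and 103 lower calls, and with limma into 220 and 193. Sst turned to 0.030 with library totals alone, 0.026 without Rn45s, 0.031 with limma and 0.029 with WAS replicate 2 alone, where Gad1 was 0.13, Npy 0.073, Pvalb -0.085 and Calb1 0.13. With the replicate number as a block, 1 marker, Calb2, passed an adjusted p of 0.05, and no other marker changed its call (Npy -0.41 with an unadjusted p of 0.0034 in edgeR, short of the fold change). Per Gad1 plus Gad2, each difference moved by less than the pooled SD of the groups, but with other denominators or a library left out Sst ran from -0.16 to 0.095, Npy from -0.58 to -0.24, Pvalb from -0.090 (without WAS replicate 1) to 0.45, Vip from -0.44 (without control replicate 3) to -0.070 (without WAS replicate 2), Cck from -0.42 to -0.18, Calb1 from -0.23 to -0.066 and Calb2 from 0.95 (without WAS replicate 1) to 2.07 (without WAS replicate 2). The 3 libraries per group leave the interval of Npy from -0.77 to 0.021.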
